A study of Mus musculus with 4 samples.

Results

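The CLK kinases, the related kinases SRPK1, SRPK2 and DYRK1A, and the arginine- and serine-rich protein gene Rsrp1 were followed in ST2 cells after exposure to LIPUS, pulsed ultrasound of low intensity that is applied clinically to help fractures heal. The members were the probe sets annotated to Clk1, Clk2, Clk3, Clk4, Rsrp1, Srpk1, Srpk2 and Dyrk1a. They came to 19 of the 45037 probe sets that are not array controls, for 8 of 18193 genes. The genes were chosen with their values on these arrays known, so the values of the members describe them and are not a test.

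ST2 is a stromal cell line with fibroblast-like shape, derived from BALB/c mouse bone marrow. On 3 arrays the cells had been exposed to LIPUS for 20 min at 25 mW per square cm and then kept in culture for 0.5, 1 or 3 h, and 1 array held control cells cultured at 37 °C. All 4 groups were grown in RPMI 1640 medium with 10% serum under 5% CO2. The labels do not say whether the control dishes were handled like the treated ones, or when they were harvested. Each group was 1 array, so no test was possible, differences between cultures were not measured, and with so few arrays each value has limited precision. Of 12 stromal marker genes, 11 lay above the floor (defined below) on every array, with Thy1 under it. Of 12 blood, endothelial and epithelial marker genes, 8 had a probe set, and Ptprc, Adgre1, Itgam, Pecam1 and Cdh5 lay under the floor on all arrays, while Cd3e, Epcam and Krt8 lay above it.

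CLK kinases are nuclear enzymes that phosphorylate the arginine- and serine-rich (RS) domains of SR proteins, a family of splicing factors, and so release them from nuclear speckles. SRPK kinases act on the same domains, largely in the cytoplasm, where phosphorylation lets SR proteins enter the nucleus. DYRK1A is a related kinase that also has splicing factors among its substrates. In mammalian cells part of the Clk1 and Clk4 RNA is held in the nucleus with introns still in place, and these arrays do not separate that RNA from the spliced message.

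Signals are the deposited log2 values of each probe set. The median of all values, 5.23, served as a floor to which lower values were lifted, and a ratio was computed where at least 1 of the 2 arrays was above it. By this filter 18 of the 19 probe sets were measured in every comparison. The exception was the Srpk2 probe set 1431372_at, whose log2 signal was 4.42, 4.43 and 4.48 at 0.5, 1 and 3 h after LIPUS, against 4.52 in control cells. A probe set was said to rise or fall when its log2 ratio reached 1 in size, which is 2-fold. As a partial measure of technical error, the log2 ratios to control of the brightest pair of probe sets per gene disagreed with an SD per probe set of 0.11 at 0.5 h (5284 genes), 0.16 at 1 h (5292 genes) and 0.14 at 3 h (5285 genes). Both probe sets of a pair are read on the same 2 arrays, so error that they share is not in this SD. Differences between the transcripts they see are in it.

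At 0.5 h after LIPUS, Clk1 and Rsrp1 rose and Clk4 came close to the rule by its brightest probe set, while the other members lay near their control values. Of the 18 measured probe sets, 4 rose and 0 fell, where 0.126% of all 22978 measured probe sets rose and 0.00435% fell. These 4 were the single probe set of Clk1 and all 3 of Rsrp1. More cells that express a gene and more of its RNA per cell cannot be told apart in such samples. Both of the probe sets of Clk4 were at least 1.5-fold higher, a level that 0.331% of all probe sets reached. The median log2 ratio of the measured members was 0.08, against 0.00 over all measured probe sets, since the remaining 12 probe sets lay between −0.24 and 0.14.

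Clk1, the first-described CLK kinase, had a log2 signal of 9.75, 9.22 and 8.60 at 0.5, 1 and 3 h after LIPUS, against 8.47 in control cells (probe set 1426124_a_at). The signal was highest at 0.5 h, lower at each later time and nearest to the control at 3 h. The ratio to control was 2.44-fold at 0.5 h, 1.68-fold at 1 h and 1.09-fold at 3 h. On the log2 scale these are 1.29, 0.75 and 0.13, of which the last lies within the SD between probe sets at 3 h. On the linear scale, the signal above control at 1 h was 47.3% of that at 0.5 h, and at 3 h it was 6.50%. Set against the mean of the other 3 arrays in place of the control array, Clk1 had a log2 ratio of 0.99 at 0.5 h and was no longer past 2-fold. That mean holds the 1 h array, where Clk1 was itself 1.68-fold its control value.

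Clk4, the closest relative of Clk1 in the family, followed a similar course by both of its probe sets. Probe set 1422886_a_at had a log2 signal of 7.81, 7.38 and 6.85 at 0.5, 1 and 3 h after LIPUS, against 6.87 in control cells. Probe set 1427663_a_at had a log2 signal of 7.62, 7.19 and 6.56 at the same times, against 6.86 in control cells. Both were highest at 0.5 h and lowest at 3 h, with the control between the 1 h and 3 h values. The log2 ratio at 0.5 h was 0.94 by the first and 0.76 by the second, which is 1.92-fold and 1.69-fold, short of the rule. The signal above control at 1 h was 45.5% and 36.6% of that at 0.5 h on the linear scale. At 3 h the first was level with the control at −0.03, and the second was lower at −0.30, more than the SD between probe sets. The probe sequences were not used here, so whether the Clk1 and Clk4 probe sets pick up each other's transcripts was not tested.

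Rsrp1 encodes a protein rich in arginine and serine, the residues that make up the RS domains of splicing factors. Probe set 1417001_a_at, the brightest of its 3, had a log2 signal of 10.61, 9.77 and 8.85 at 0.5, 1 and 3 h after LIPUS, against 8.46 in control cells. Probe set 1448538_a_at had a log2 signal of 10.46, 9.00 and 8.26, against 8.18 in control cells. Probe set 1435357_at had a log2 signal of 8.08, 7.38 and 6.11, against 6.05 in control cells. All 3 were highest at 0.5 h, then at 1 h, then at 3 h, and lowest in control cells. The rise at 0.5 h was 4.42-fold, 4.84-fold and 4.07-fold in that order of probe sets. Counted from the highest log2 ratio among all 22978 probe sets, they held ranks 11, 10 and 12, while Clk1 held rank 20 and the Clk4 probe sets ranks 33 and 45.

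**Figure D1:**
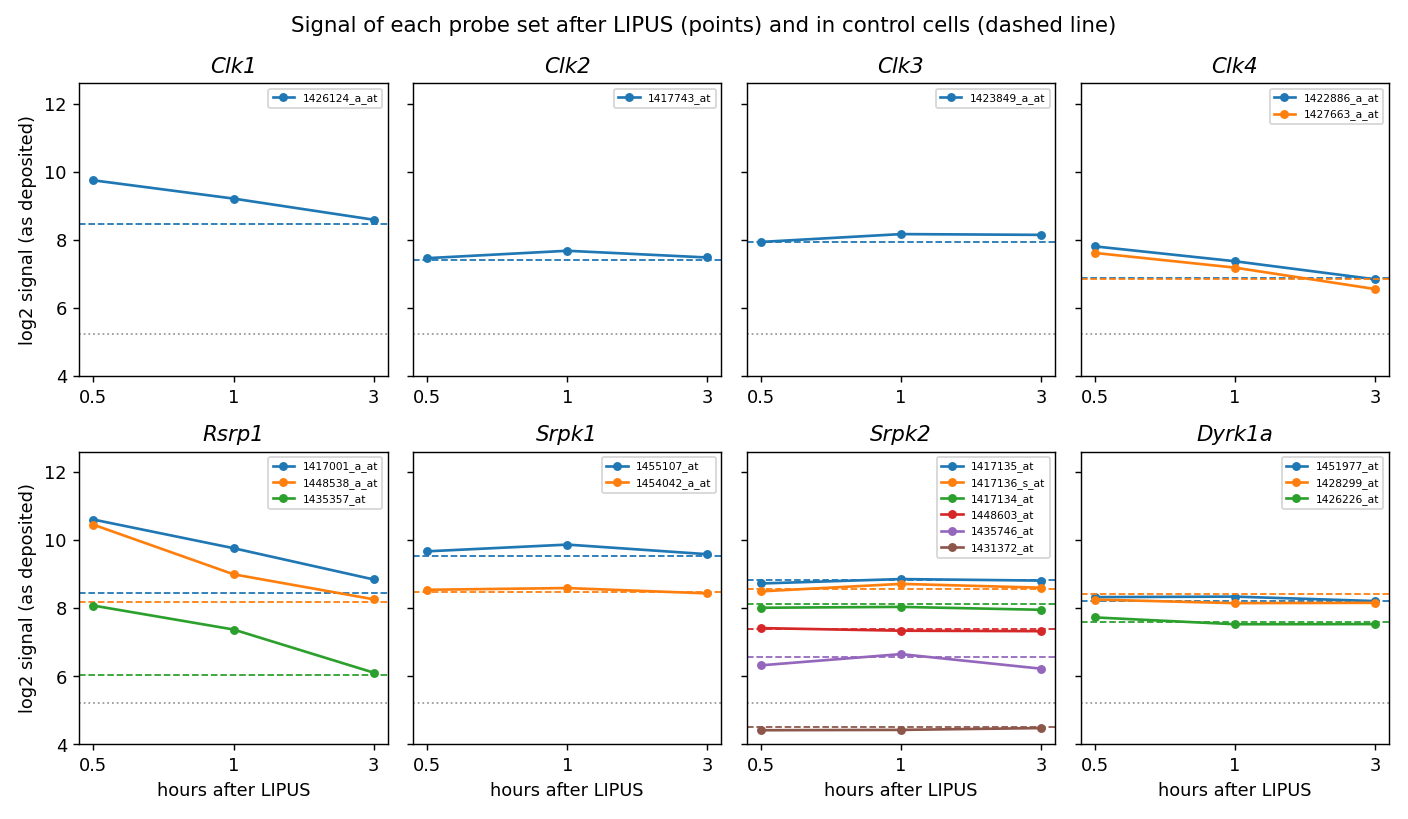
Log2 signal of every probe set of the 8 genes at 0.5, 1 and 3 h after LIPUS (points joined by lines, times evenly spaced, 1 array each), with the control array as a dashed line of the same colour and the floor of 5.23 as a dotted line. Clk1, Clk4 and Rsrp1 were highest at 0.5 h, and at 3 h their log2 ratios to control lay between −0.30 and 0.38. The other genes stayed close to their control lines.

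The 3 probe sets of Rsrp1 gave different calls at 1 h. The log2 ratio to control was 1.30 by 1417001_a_at, 1.32 by 1435357_at and 0.82 by 1448538_a_at, so that 2 passed the rule and the other did not. The difference between the highest and lowest was 0.50, and of 1372 genes with 3 measured probe sets 157, or 11.4%, had a range as wide at 1 h. The median range over the 1372 genes was 0.24. Between 0.5 h and 1 h, 1448538_a_at fell by 1.46 on the log2 scale, whereas 1417001_a_at and 1435357_at had log2 differences of −0.84 and −0.70, short of 2-fold. The fall of 1448538_a_at was the steepest among all 23067 probe sets measured in this step. Of 1376 genes with 3 measured probe sets, 18 had a range between probe sets as wide as that of Rsrp1 in this step, 0.75, and the median range over the 1376 genes was 0.21. These ranges were not scaled to the size of the change. The annotation derives 1417001_a_at and 1448538_a_at from the same sequence record, and the suffix of both marks probes shared by alternative transcripts of one gene. Which transcripts each probe set sees was not tested.

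Between 1 h and 3 h the order turned. Probe set 1435357_at fell by 1.27 on the log2 scale, whereas 1417001_a_at and 1448538_a_at had log2 differences of −0.92 and −0.73. As a share of the signal above control at 0.5 h, on the linear scale, Rsrp1 was at 42.9%, 19.9% and 48.8% at 1 h by 1417001_a_at, 1448538_a_at and 1435357_at. At 3 h the shares were 8.89%, 1.57% and 1.24% in the same order. The brightest probe set thus kept a log2 ratio of 0.38 at 3 h, while the other 2 were at 0.08 and 0.05, within the SD between probe sets.

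Over the members as a whole, 2 probe sets had risen and 0 had fallen against control at 1 h, both of Rsrp1, where 0.212% of all 23075 probe sets rose and 0.00433% fell. At 3 h, 0 of 18 had risen and 0 had fallen, where 0.0649% of 23098 probe sets rose and 0.00433% fell. The step from 0.5 h to 1 h held 1 member that fell, where 0.00867% of probe sets fell, and 0 that rose, where 0.182% did. The step from 1 h to 3 h held 1 that fell, where 0.065% fell, and 0 that rose, where 0% did. With 1.5-fold as the rule, 5 of 18 members fell in the later step, namely all of Rsrp1, Clk1 and 1427663_a_at of Clk4, where 0.541% of probe sets did. The adjacent steps share the 1 h array, and the 3 comparisons with control share the control array, so their values are not independent. Against the mean of the other 3 arrays, 0 members were past 2-fold higher at 1 h. That mean holds the 0.5 h array, where Rsrp1 was highest by each probe set, which lowers the ratio.

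**Figure D2:**
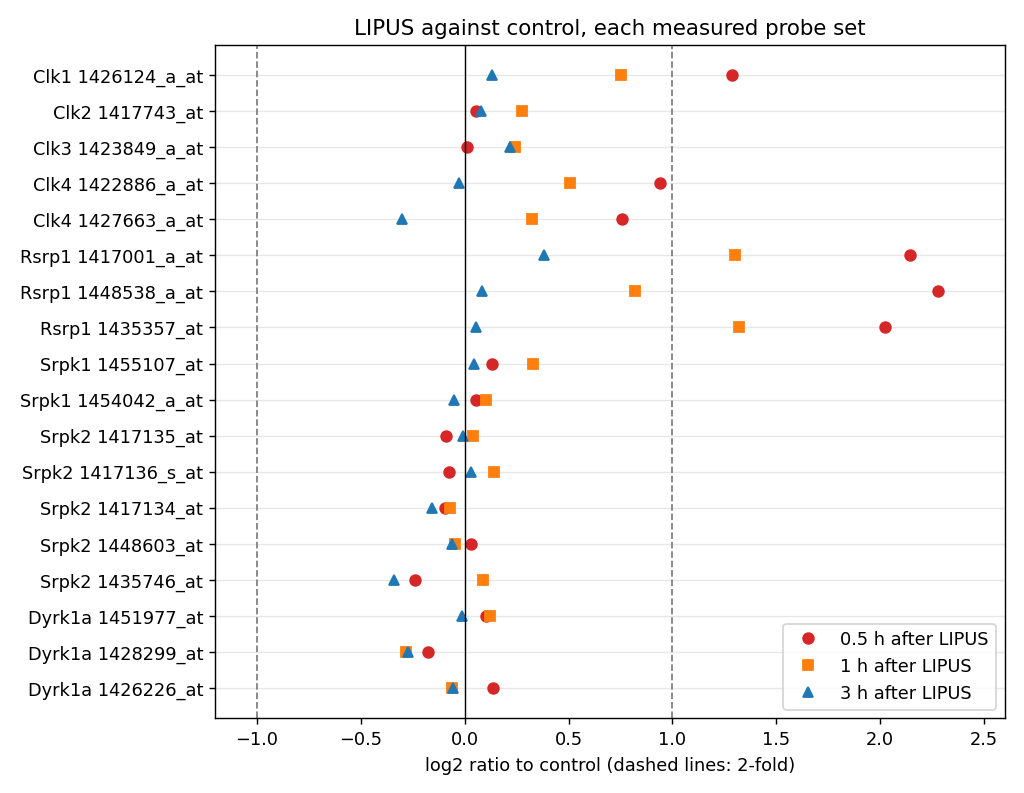
Log2 ratio to control of the 18 measured probe sets (rows) at 0.5 h (circles), 1 h (squares) and 3 h (triangles) after LIPUS, with dashed lines at 2-fold. The circles of Rsrp1 and Clk1 lie past the right line and those of Clk4 short of it, at 0.94 and 0.76. At 1 h 2 squares of Rsrp1 lie past it.

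**Figure D3:**
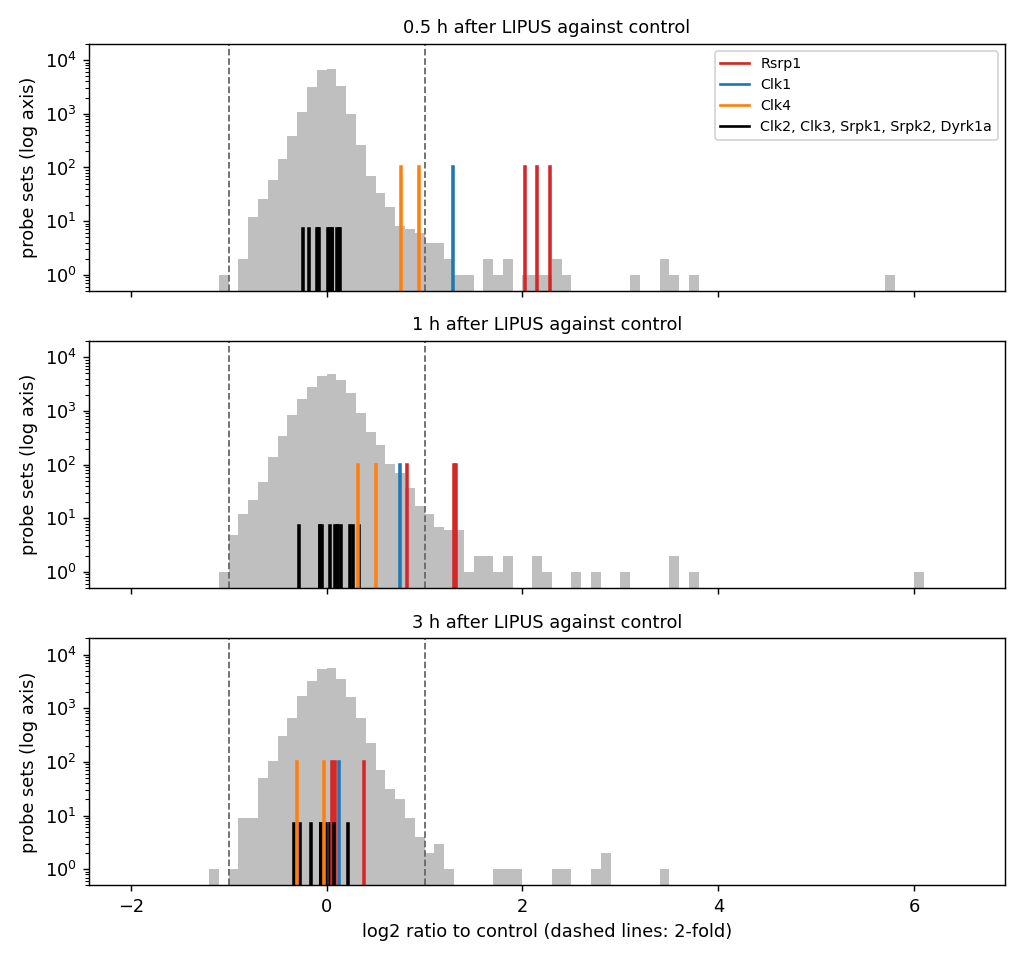
Histogram of the log2 ratio to control over all measured probe sets (grey, log count axis) at each time after LIPUS, with member probe sets as vertical lines and 2-fold as dashed lines. At 0.5 h Rsrp1, Clk1 and Clk4 lie in the sparse right tail, and at 3 h every member lies between the dashed lines.

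The other CLK genes did not pass the rule at any time. Clk2, a kinase of the same substrates, had a log2 signal of 7.47, 7.68 and 7.49 at 0.5, 1 and 3 h after LIPUS, against 7.41 in control cells. Clk3, another kinase of the family, had a log2 signal of 7.94, 8.17 and 8.15, against 7.93 in control cells. At 0.5 h, where Clk1 and Clk4 were highest, Clk2 and Clk3 lay within the SD between probe sets of the control, at log2 ratios of 0.06 and 0.01. Both had their highest log2 ratio at 1 h, 0.27 for Clk2 and 0.24 for Clk3. At 3 h, Clk3 was at 0.22 and Clk2 at 0.08. Each rests on 1 probe set.

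Among the SR protein kinases of the SRPK branch, Srpk1 had a log2 signal of 9.67, 9.87 and 9.59 at 0.5, 1 and 3 h after LIPUS, against 9.54 in control cells (1455107_at). Its other probe set, 1454042_a_at, had a log2 signal of 8.54, 8.59 and 8.44, against 8.49 in control cells. The 1 h array was the highest by both probe sets, with log2 ratios of 0.33 and 0.10, neither past the rule. Srpk2 was covered by 6 probe sets, of which 5 were measured. Their log2 ratios lay between −0.24 and 0.03 at 0.5 h, between −0.07 and 0.14 at 1 h and between −0.34 and 0.03 at 3 h. The dimmest measured one, 1435746_at, differed most between arrays, with a log2 signal of 6.32, 6.65 and 6.22 against 6.56 in control cells. Its ratio was below 0 at 0.5 h and 3 h and above 0 at 1 h. The brightest, 1417135_at, had the same signs but stayed within 0.10 of its control value at each time.

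Dyrk1a was covered by 3 probe sets, which did not move together. Probe set 1428299_at had a log2 signal of 8.26, 8.15 and 8.16 at 0.5, 1 and 3 h after LIPUS, against 8.43 in control cells, and so was lower on every LIPUS array. Its log2 ratios were −0.18, −0.28 and −0.27. Probe set 1451977_at was at 8.33, 8.34 and 8.21, against 8.22 in control cells, and 1426226_at was at 7.73, 7.53 and 7.54, against 7.59 in control cells. No ratio of Dyrk1a reached 1.5-fold in either direction.

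Promoter sequences are shown for Rsrp1 and Clk4, which were highest at 0.5 h, and for the family members Clk2 and Clk3, which were not. RefSeq start sites of the GRCm38.p6 build were given for 7 of the 8 genes, all but Clk1, in 11 windows. Each line is the 250 bases before the start on the gene's strand, with motif matches in capitals.
Rsrp1, chr4:134923375-134923624, plus strand: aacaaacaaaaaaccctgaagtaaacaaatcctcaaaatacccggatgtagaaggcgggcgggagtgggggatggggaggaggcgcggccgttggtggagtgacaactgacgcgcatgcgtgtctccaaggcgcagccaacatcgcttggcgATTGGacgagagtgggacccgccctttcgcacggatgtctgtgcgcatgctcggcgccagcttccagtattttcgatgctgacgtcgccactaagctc
Clk4, chr11:51262864-51263113, plus strand: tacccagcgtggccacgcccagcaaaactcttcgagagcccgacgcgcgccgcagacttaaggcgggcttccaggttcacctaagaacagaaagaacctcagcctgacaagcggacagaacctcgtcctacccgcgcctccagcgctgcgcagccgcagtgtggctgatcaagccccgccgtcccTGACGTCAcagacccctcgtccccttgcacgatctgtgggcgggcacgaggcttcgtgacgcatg
Clk2, chr3:89164545-89164794, plus strand: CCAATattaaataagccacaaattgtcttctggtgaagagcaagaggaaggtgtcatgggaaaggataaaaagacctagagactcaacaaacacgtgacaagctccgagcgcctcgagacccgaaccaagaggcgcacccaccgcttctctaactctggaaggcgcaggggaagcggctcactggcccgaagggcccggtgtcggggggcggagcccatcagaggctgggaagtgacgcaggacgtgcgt
Clk3, chr9:57765115-57765364, minus strand: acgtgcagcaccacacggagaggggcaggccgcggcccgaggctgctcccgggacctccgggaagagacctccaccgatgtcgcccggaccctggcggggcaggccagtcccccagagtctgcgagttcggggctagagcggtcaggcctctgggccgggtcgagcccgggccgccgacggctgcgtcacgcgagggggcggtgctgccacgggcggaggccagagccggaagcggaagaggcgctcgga
The Clk4 window held the cAMP response element TGACGTCA, on bases 65 to 58 before the start, a motif present in 1.55% of 32851 windows of the same length in the table. The Rsrp1 window held a CCAAT box, read as its reverse complement ATTGG on bases 98 to 94 before the start, and the Clk2 window held CCAAT at its far end. With 1 window each of Dyrk1a and Srpk2, 4 of the 11 member windows held this motif, against 33.8% of all windows. No motif of the set was in the Clk3 window. Pairs of inverted heat shock units, written GAANNTTC or TTCNNGAA, were in 0 of the 11 member windows and in 12.8% of all windows. The AP-1 site TGANTCA and the serum response element (CArG box) were also in 0 of the 11, against 6.75% and 1.47% of all windows, and the EGR site GCGNGGGCG was in 1 window each of Dyrk1a and Srpk2, against 4.7%. Both strands were searched and no matches overlapped in the member windows. A match or its absence describes the letters of these windows and not the binding of a factor.

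The genes whose course was nearest to that of Clk1 and Rsrp1 were found by the distance between their 3 log2 ratios to control, over 11014 genes above the floor on all 4 arrays. All of these ratios share the control array. The distance was not scaled to the size of the change, so it reflects size as well as course. Nearest to Clk1 were Ccdc117 at a distance of 0.24, the prostaglandin synthase gene Ptgs2 at 0.35, the endothelin gene Edn1 at 0.37, the AP-1 gene Jun at 0.39 and the phosphatase gene Dusp1 at 0.47. Clk4 lay at 0.45, between Jun and Dusp1. Ccdc117 had log2 ratios of 1.22, 0.66 and −0.09 at 0.5, 1 and 3 h. Rsrp1, with larger ratios, had no neighbour as close. The nearest was the activity-regulated gene Arc at 0.66, followed by Phlda1 at 0.78, Edn1 at 0.90, the co-chaperone gene Bag3 at 1.03 and Tent5a at 1.21, and Clk1 itself lay at 1.05. Arc had log2 ratios of 1.80, 1.61 and −0.09, a smaller difference between 0.5 h and 1 h than that of Rsrp1. Clk2, Clk3, Srpk1, Srpk2 and Dyrk1a lay between 1.23 and 1.56 from Clk1.

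**Figure D4:**
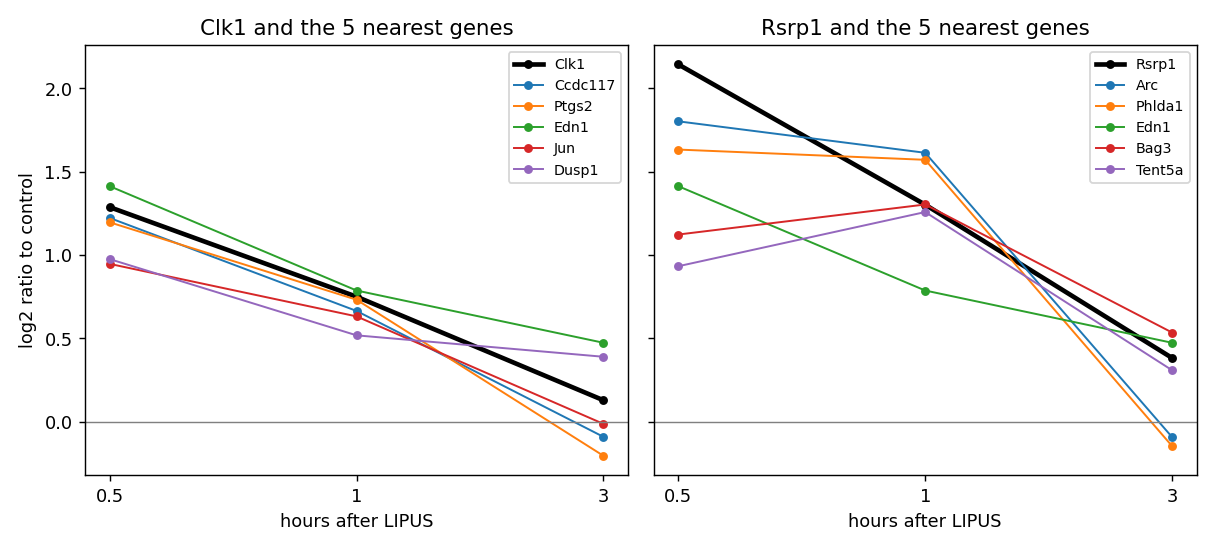
Log2 ratio to control at 0.5, 1 and 3 h after LIPUS (evenly spaced) for Clk1 and Rsrp1 (thick black lines) and for the 5 genes nearest to each, by the brightest probe set. The lines around Clk1 are all lower at 1 h than at 0.5 h, whereas of those around Rsrp1 Bag3 and Tent5a are higher at 1 h.

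The substrates and partners of these kinases did not pass the rule by their brightest probe sets. Of 13 SR protein genes, 11 were measured, and 0 rose and 0 fell at any time. Of all genes, 0.138%, 0.191% and 0.0691% rose at 0.5, 1 and 3 h, and 0% fell. At such shares a list this short would mostly hold 0, so the count does not set these genes apart. Their median log2 ratios were 0.03, 0.01 and −0.08 at those times, against 0.01, 0.02 and 0.01 over all genes. Srsf11 had the highest mean over the 3 times, with log2 ratios of 0.25, 0.34 and 0.06, and Srsf4 the lowest, with −0.11, −0.14 and −0.08. Srsf5, chosen after its values were seen, had log2 ratios of 0.19, 0.05 and −0.51.

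All 20 genes of SR-related and nuclear speckle proteins were measured, and by their brightest probe sets 0 rose and 0 fell. This is near the shares of all genes, of which 0.138%, 0.191% and 0.0691% rose at 0.5, 1 and 3 h and 0% fell. Their medians were 0.07, 0.12 and −0.01. At 1 h, 2 of the 20 were at least 1.5-fold higher, where 0.948% of all genes were. These were Luc7l, which encodes a component associated with the U1 small nuclear ribonucleoprotein, at 0.64, and Rbm25, which encodes a regulator of alternative splicing, at 0.60. Both were picked once their values were known. Of the 4 measured probe sets of Luc7l, all were above 0 at 1 h, between 0.25 and 0.64, and 3 were above 0 at 0.5 h. Among probe sets other than the brightest, 1 passed the rule, 1436766_at of Luc7l2, which had a log2 signal of 6.03, 7.66 and 7.33 at 0.5, 1 and 3 h after LIPUS, against 7.08 in control cells. It fell by 1.05 on the log2 scale at 0.5 h, while the brightest probe set of Luc7l2 was at 0.07.

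Of 10 other kinases of the DYRK, HIPK, PRP4 and SRPK branches, 7 were measured at 0.5 h and at 1 h and 6 at 3 h. Of these 0 rose and 0 fell, where 0.138%, 0.191% and 0.0691% of all genes rose at the 3 times and 0% fell. Among those with a ratio at all 3 times, Hipk3 had the highest mean, with log2 ratios of −0.02, 0.20 and 0.20, and Dyrk2 the lowest, with −0.30, −0.10 and −0.02. Dyrk3 was above the floor at 0.5 and 1 h only, with a log2 signal of 5.31 and 5.63, so its log2 ratios of 0.08 and 0.40 to the floor are lower bounds, and the rule for naming genes, which takes the mean over the times measured, picks it as the highest. Of 12 genes for the import, phosphorylation or dephosphorylation of SR proteins and for related factors, 11 were measured. By their brightest probe sets 0 passed the rule, against the same shares of all genes. The medians of that list were 0.03, 0.05 and 0.01. The exception among its other probe sets was 1431182_at, annotated to the constitutive chaperone gene Hspa8. Its log2 signal was 8.65, 7.83 and 6.04 at 0.5, 1 and 3 h after LIPUS, against 6.32 in control cells, a rise of 2.33 and 1.51 on the log2 scale at the first 2 times. The brightest Hspa8 probe set had log2 ratios of 0.12, 0.06 and 0.10.

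**Figure D5:**
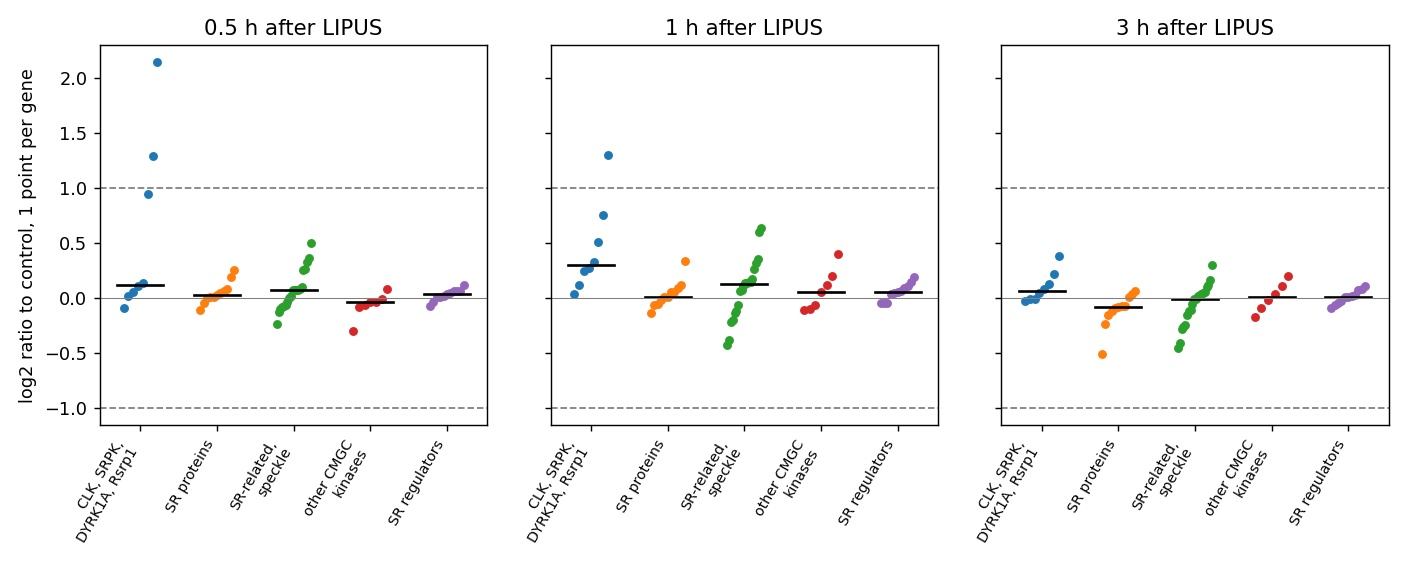
Log2 ratio to control at each time after LIPUS for the 8 member genes and for 4 lists of related genes, 1 point per gene by its brightest probe set, with medians as black bars and 2-fold as dashed lines. Points past 2-fold belong to Rsrp1 and Clk1, and the lists of related genes lie between the dashed lines.

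Array controls differed between the arrays as well. Median log2 ratios to control were 0.96, 1.91 and 1.79 at 0.5, 1 and 3 h over the 3 probe sets of 18S ribosomal RNA, and −0.05, 0.28 and 0.41 over the 12 of poly-A spike transcripts. Medians were −0.05, −0.15 and −0.10 for Gapdh and −0.06, −0.08 and −0.05 for Actb. The difference between 5' and 3' control probe sets of TransRec changed most at 0.5 h, by −0.41, −0.30 and −0.14 at the 3 times. Those of Gapdh, beta-actin and PyruCarb changed least at 0.5 h, by −0.06, −0.03 and −0.09. The part of such differences between arrays in the ratios of the members was not tested at any time. Pearson's r across all probe sets, which are not independent replicates, was at least 0.996 between any 2 arrays.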

How the data were processed

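ST2 total RNA was measured on the Affymetrix Mouse Genome 430 2.0 array, with 1 array per group. Per the labels' protocols, RNA had an integrity number above 9.5, and cRNA was made from 500 ng with a kit that primes at the poly-A tail, so signals come mostly from 3' ends. The authors deposited log2 values, 1 for each probe set on each array. The log base was taken from the range of values, 1.53 to 14.5, and the ways probes were summarised and arrays scaled are not given in the sources used here.

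Symbols came from the platform annotation and were updated through the Entrez number (34754 of 34958 probe sets with 1 symbol). Log2 ratios, the floor and the 2-fold rule were as described above. Gene counts used the brightest probe set on average. Related-gene lists were written from known function, and the members and lists were chosen with earlier results of these data known. All member probe sets were named. From each list, genes with a probe set past 2-fold were named, or else the highest and lowest mean, and for Clk1 and Rsrp1 the 5 nearest genes. Alternatives covered the floor, the scaling, the threshold, both arrays above the floor and the reference. Python 3.11.15, numpy 2.4.6, pandas 2.3.3, R 4.3.3 and limma 3.58.1 were used.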

Additional observations from a re-analysis of the deposited data

Results flagged for a closer look

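One probe set of Clk4, 1427663_a_at, lay on opposite sides of the control at different times, each by more than 2 SDs of the disagreement between probe sets of one gene. Its log2 ratio was 0.76 at 0.5 h and 0.32 at 1 h after LIPUS, and −0.30 at 3 h. The other probe set, 1422886_a_at, was at 0.94, 0.50 and −0.03. The difference between the times was not tested, since each time is 1 array.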

How the results depend on the processing

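The count of members that rose at 0.5 h, reported as 4, lay between 3 and 6 under the alternatives run. Clk1 was not past the rule with a 3-fold threshold or against the mean of the other 3 arrays, and 1435357_at of Rsrp1 was not with the floor at the 75th percentile, log2 7.72, where its ratio of 0.36 is a lower bound. Against the 2 that rose at 1 h, 1 rose with the floor at the 75th percentile, 4 with a 1.5-fold threshold, 0 with a 3-fold threshold and 0 with that mean as reference. At 3 h, 1 was lower with that reference. The reference holds the 0.5 h array at 1 h and 3 h, and the 1 h array at 0.5 h. The 1 that fell between 0.5 h and 1 h became 3 with a 1.5-fold threshold and 0 with a 3-fold threshold. The 1 that fell between 1 h and 3 h became 0 with the floor at the 75th percentile, 5 with a 1.5-fold threshold and 0 with a 3-fold threshold. Median centring, quantile normalization, cyclic loess, the floor at the 25th percentile or none, and both arrays above the floor left all of these counts as they were. No ratio past the rule changed sign. Without a floor, or with it at the 25th percentile, the Srpk2 probe set 1431372_at had log2 ratios of −0.10, −0.09 and −0.04 at 0.5, 1 and 3 h. No paired analysis was possible because each group is 1 array.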

Other observations

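Several probe sets of splicing-related genes that were not the brightest of their gene lay lower at 0.5 h and higher at 1 h than in control cells, all chosen after their values were seen. The share of all probe sets with this course was not counted, so it is not shown to be particular to splicing genes. Over the array, 0.182% of probe sets were at least 2-fold higher at 1 h than at 0.5 h. That share is for a 2-fold step, which not all of the probe sets below reach, so it is not the background rate of this course. Probe set 1436767_at of Luc7l2 had log2 ratios of −0.74, 0.53 and 0.24 at 0.5, 1 and 3 h, next to −1.05, 0.58 and 0.25 for 1436766_at. Probe set 1437862_at of Rbm25 had log2 ratios of −0.39, 0.62 and 0.10, while its brightest probe set was at 0.36, 0.60 and 0.04. Probe set 1452125_at of Thrap3, which encodes a splicing and transcription cofactor, had log2 ratios of −0.45, 0.37 and 0.21, whereas its brightest probe set was at −0.13, −0.38 and −0.41. Rbm39 had several such probe sets, among them 1438420_at at −0.44, 0.58 and 0.12, while its brightest was at 0.25, 0.35 and 0.02. The same course was seen in 1438495_at of Top1, at −0.40, 0.42 and 0.24, and in 1436918_at of the kinase gene Dyrk2, at −0.15, 0.46 and 0.20.

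When all 21434 probe sets above the floor on every array were compared, in place of 1 per gene, 1431182_at of Hspa8 was the second nearest to the brightest probe set of Rsrp1, at a distance of 0.73, after Arc at 0.66. Both probe sets of Ccdc117 were the nearest to Clk1, at 0.24 and 0.27.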
